A study of Mus musculus with 10 samples.

Results

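The 4T1 mouse mammary carcinoma spreads to brain (B) and lung (L), and sublines taken from these 2 metastatic sites were compared with sublines isolated from primary tumours (P), to find the changes in gene expression that both sites shared. The 7 metastatic arrays (B1 to B4 and L1 to L3) and the 3 primary tumour arrays (P1 to P3) make up all 10 arrays of the series, and each site was given the same weight, so that the difference is the mean of B and L minus P. A positive difference therefore means a higher level in the metastatic sublines. The value used throughout is the log2 normalized intensity of the probe chosen for a gene, on which a difference of 1 is a doubling.

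4T1 is a line from a mammary tumour of a BALB/c mouse that grows in mice of its own strain and spreads without further help to lung and brain. Per the methods of the study, 4T1 cells carrying a luciferase gene were placed under the skin of female BALB/c mice aged 6 to 8 weeks, while the series record calls the inoculation orthotopic. Cells from primary tumours, lungs and brains were brought into culture, passaged 3 to 4 times and read on Illumina MouseWG-6 v2.0 bead arrays, with 1 array for each independently isolated subline. P, L and B thus share the parental line, the luciferase tag, the host strain and the culture medium. The groups differ in the organ that was dissociated and in the way it was done, since primary tumours were chopped and digested with collagenase and lungs and brains were pressed through a sieve. Primary tumour cells also went through DNase and erythrocyte lysis and were first plated in a larger dish with more medium. The organ, the dissociation and the first plating cannot be told apart, and the subline, not the mouse, is the replicate. In bulk RNA of this kind, fewer cells of a type and less RNA per cell cannot be told apart.

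Of the 45281 probes, those with a detection p up to 0.01 were taken as detected, which gave 14218 to 14635 on P, 14764 to 14938 on L and 14796 to 15563 on B arrays. The spread between sublines was larger in B, where the median SD over genes was 0.282, than in P (0.198) or L (0.189), and B3 correlated least with any other array (highest r = 0.965, across genes). The label of mammary carcinoma cells was checked on 12 markers, of which 9 were detected, and the keratins Krt8, Krt18 and Krt19 were detected on all 10 arrays. Of the 9, 7 had an average difference below 0 and 1, Krt14, passed the test. The median of the 9 was -1.51 for B − P and 0.13 for L − P, and Krt14, Cldn3, Krt19, Cdh1 and Cldn7 were lower in B than in L (limma, adjusted p from 0.00112 to 0.0341). Epcam and Krt5 were not detected on any array, and Trp53 had no probe named for it here. Of 96 markers of 9 other cell types, 90 had a probe and 70 of these were not detected on any array, among them Gfap, Rbfox3, Mog, Ptprc, Pecam1, Col1a1 and Sftpc. Of the 20 that were detected, 1 differed between the metastatic sublines and P (Pdgfra, below), against 4.55% of all genes tested. Between the sites (limma, B − L, adjusted p under 0.05), 2 macrophage and microglia markers differed. So did 1 marker each of astrocytes, of fibroblasts and pericytes, and of lung epithelium. Of all genes tested, 5.88% were higher in B than in L and 6.14% lower.

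A cell that has settled in a distant organ has left the tumour, survived in the circulation and grown out in a tissue with other neighbours. Gene programmes commonly followed in such cells are the display of peptides on MHC class I, which lets T cells see a tumour cell, the interferon-stimulated genes that share its control, the building of ribosomes, which sets the capacity for growth, and the secreted factors and matrix proteins through which cells act on the surrounding tissue. MHC class I display needs a proteasome, whose interferon-induced subunits Psmb8 and Psmb9 change which peptides are cut, and a transporter, of which Tap2 is a subunit, that carries the peptides to the class I molecule. Ribosome biogenesis starts in the nucleolus, where processing factors cut and fold the ribosomal RNA.

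Of 9486 genes tested, 432 differed between the metastatic sublines and P (4.55%; limma on all 10 arrays, Benjamini-Hochberg adjusted p under 0.05), and 2201 had an unadjusted p under 0.05. Higher levels in the metastatic sublines were found for 267 genes (2.81%) and lower levels for 165 (1.74%). The average of both sites can rest on 1 of them, so a gene was called shared where, besides, all 7 metastatic arrays lay on one side of all 3 P arrays and both B − P and L − P had that sign with an unadjusted p under 0.05. This held for 142 genes that were higher (1.50% of the genes tested) and 66 that were lower (0.696%). Of the 142, 25 were not detected on any P array, and 5 of all 208 shared genes were not detected on any metastatic array. For these the size is known only as a bound, with the undetected group at the dimmest detected signal. This bound was 1.47 in place of 1.79 for Tmem53, but -0.20 in place of 0.54 for Ccdc57 and -0.16 in place of 0.86 for Foxf1. All 7 metastatic arrays lay above all 3 P arrays for 390 of the 9486 genes (4.11%) and below them for 377 (3.97%), whether called or not.

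Most of the size of the average came from the brain sublines. Among the 142 shared higher genes the median difference was 1.20 for B − P and 0.72 for L − P, and among the 66 shared lower genes it was -0.95 and -0.61. B − P and L − P use the same 3 P arrays, so their likeness is no separate evidence. The sites themselves differed (limma, B − L, adjusted p under 0.05) for 558 genes that were higher in B than in L (5.88%) and 582 that were lower (6.14%), among them 221 of the 432 called genes and 54 of the 208 shared ones. In 191 of the 208 the B difference was the larger and in 17 the L difference. Taken alone in the same fit, B − P passed the adjusted threshold (limma) for 2011 genes and L − P for 0. For L − P the adjusted p was 0.147 at its lowest, and 860 genes were under 0.05 before adjustment. The L side of a shared gene is thus known only at the unadjusted level.

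**Figure D1:**
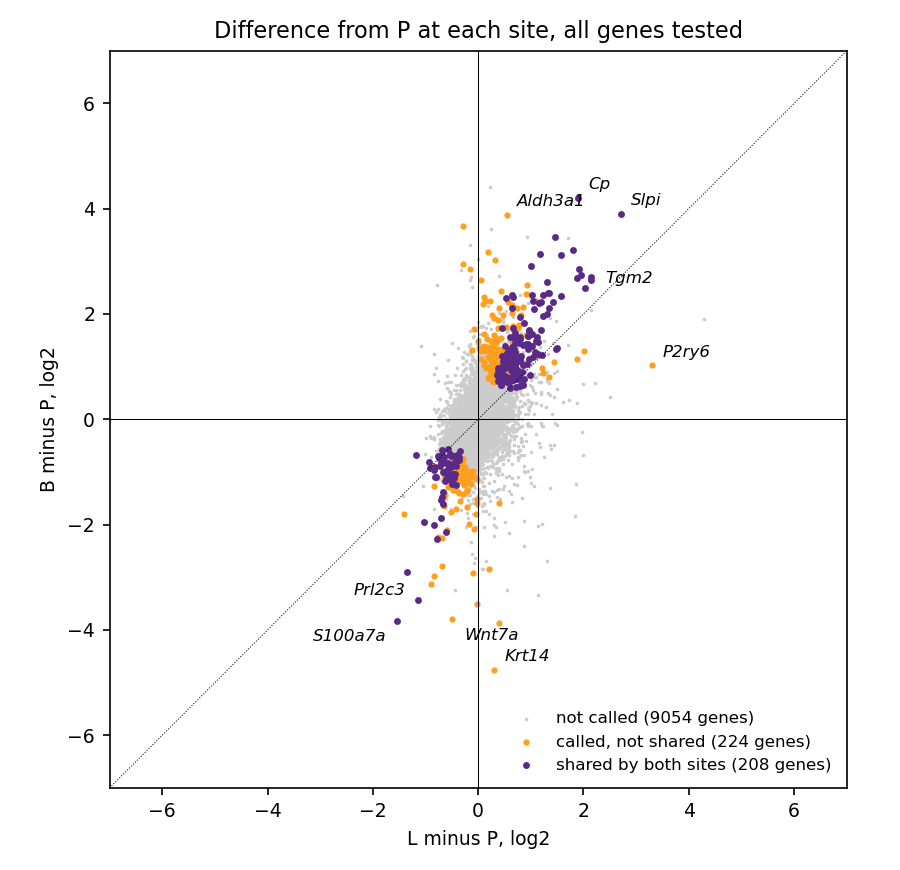
Difference from P in lung sublines (x axis, L minus P, log2) and in brain sublines (y axis, B minus P, log2) for every gene tested, with called genes in orange and shared genes in purple and the dotted line marking equal differences. Shared genes lie in the upper right and lower left by definition, and 191 of 208 lie further along the B axis. P2ry6 lies far along the L axis and Aldh3a1, Wnt7a and Krt14 close to the B axis.

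These counts depend on single arrays. Without P1, 24 genes were called and 22 were shared, of which 20 were also shared with all arrays. Without P2 or P3, 158 and 79 genes were called, and without L1, L2 or L3, 120, 285 and 145. Without B1 the count was 248, and without B2, B3 or B4 it rose to 579, 568 and 672. The 7 metastatic arrays taken as 1 group, where the difference between the sites counts as spread, gave 2 called genes, Tgm2 and Fcna, against 1689 at an unadjusted p under 0.05.

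**Figure D2:**
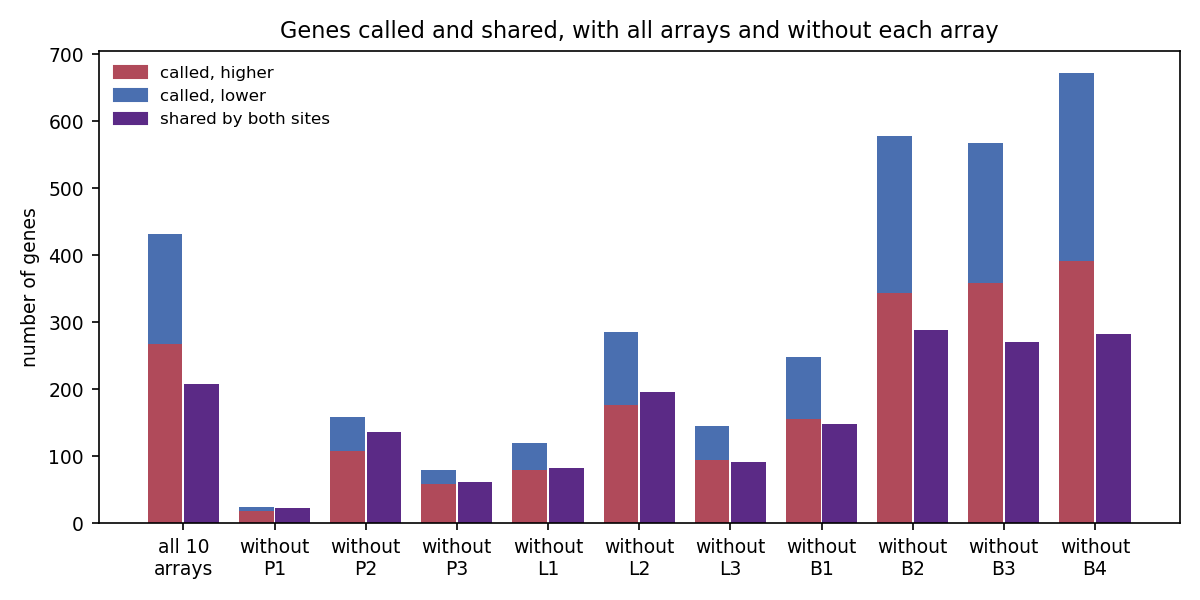
Number of genes (y axis) called higher, called lower and shared by both sites, with all 10 arrays and with each array left out in turn (x axis). The counts are lowest without P1 (24 called, 22 shared) and highest without B4 (672 called, 282 shared).

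The 12 shared genes with the largest difference at the weaker site were all above 1.4 in L and above 2.3 in B, and coded for secreted proteins, membrane and matrix proteins, and enzymes of redox and nucleotide metabolism. Slpi, a secreted inhibitor of leukocyte proteases, was 7.90, 10.50 and 11.44 in P1 to P3, 12.89, 12.86 and 12.22 in L1 to L3, and 13.98, 13.09, 14.35 and 13.97 in B1 to B4. As for every shared gene, no metastatic array fell into the range of P. Within P the level was spread over more than 3 log2 units, with P1 lowest. The average difference was 3.31 ± 0.58 (SE), 9.89-fold, with an adjusted p of 0.0134 (limma). Cp encodes ceruloplasmin, a copper-carrying ferroxidase, and stood at 5.14, 7.25 and 7.19 in P, at 8.54, 8.26 and 8.47 in L and at 10.76, 10.50, 11.37 and 10.32 in B. It showed 3 separate levels, and the B arrays exceeded the L arrays by 2.31 (95% interval 1.35 to 3.27, adjusted p for B − L = 0.00825). Its average difference was 3.06 ± 0.40 (adjusted p = 0.00576), and P1 was again the lowest array, below the detection limit there. Masp1, a protease of the lectin pathway of complement, was 1.96 ± 0.42 higher (adjusted p = 0.0299).

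Among genes of the cell surface and matrix was Tgm2. This transglutaminase cross-links proteins and stood at 7.98, 8.80 and 8.68 in P, at 10.81, 10.40 and 10.67 in L and at 11.06, 10.76, 12.03 and 10.93 in B. The gap between the highest P array and the lowest metastatic array was larger than the whole range of P. The average difference was 2.43 ± 0.27, 5.37-fold (adjusted p = 0.00429), and B − L was 0.57 (-0.08 to 1.21). The call for Tgm2 was made in all 21 alternatives in which it was tested. Pmp22, a membrane protein of myelin that is also made outside the nervous system, was 4.66, 4.997 and 6.64 in P, 7.66, 7.59 and 7.46 in L and 7.72, 7.69, 8.80 and 8.09 in B. It was detected on 1 of 3 P arrays and on all 7 metastatic ones, at similar levels in L and B (average 2.39 ± 0.37, adjusted p = 0.0104; B − L 0.50, -0.40 to 1.40). Mxra8, a surface protein of the immunoglobulin superfamily, was not detected on any P array and was at least 3.21-fold higher in the metastatic sublines (adjusted p = 0.0306).

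The other members of the 12 were enzymes and regulators of metabolism or inflammation. Xdh, which makes uric acid and takes part in the release of milk fat, stood at 4.78, 6.41 and 6.04 in P, at 7.58, 6.95 and 7.07 in L and at 9.35, 9.19, 9.52 and 8.77 in B. Its B arrays lay above its L arrays without overlap (average 2.46 ± 0.31, adjusted p = 0.00576; B − L 2.01, 1.27 to 2.75). Mgst1, a membrane-bound glutathione transferase, was 5.71, 7.74 and 7.63 in P, 9.27, 9.16 and 8.51 in L and 9.44, 10.38, 9.69 and 9.54 in B (average 2.35 ± 0.40, adjusted p = 0.0124). Txnip, which binds thioredoxin and restrains glucose uptake, was 6.84, 7.49 and 8.01 in P, 10.15, 9.14 and 8.80 in L and 11.32, 10.57, 9.77 and 9.57 in B. Txnip had L and B in overlapping ranges above P, while for Mgst1 every B array lay above every L array, a difference that did not pass its test (B − L 0.78, -0.17 to 1.73). Casp1, the protease that matures interleukin-1 beta, was 7.23, 8.93 and 8.77 in P, 10.38, 9.76 and 10.44 in L and 11.37, 10.77, 11.75 and 10.11 in B (average 2.28 ± 0.40, adjusted p = 0.0134). Cyp1b1, which oxidizes steroids and aromatic compounds, ranged widely within B (8.25, 6.57, 9.63 and 8.98, against 7.46, 7.67 and 8.55 in L and 5.69, 5.82 and 6.09 in P), and had the highest adjusted p of the 12 (2.26 ± 0.51, adjusted p = 0.0342). Adssl1, the muscle form of adenylosuccinate synthase, was 2.50 ± 0.48 higher (adjusted p = 0.0183).

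**Figure D3:**
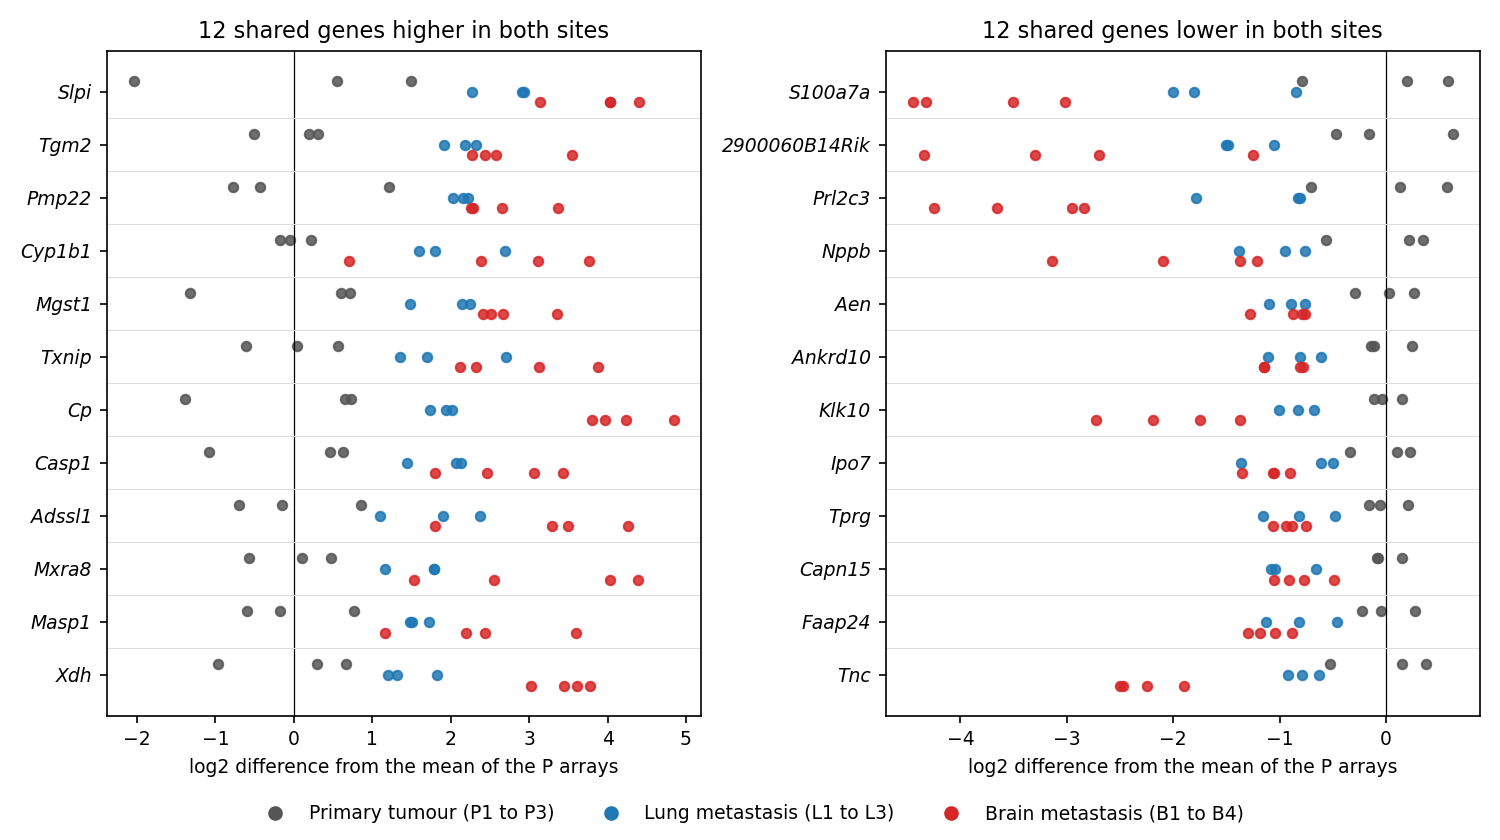
Each of the 10 arrays (P grey, L blue, B red) as its log2 difference from the mean of the P arrays, for the 12 shared genes higher (left) and the 12 lower (right) with the largest difference at the weaker site. In every row the metastatic arrays lie on one side of the P arrays, as the definition of a shared gene requires. P1 lies far below the other P arrays for Slpi, Cp, Mgst1, Casp1 and Xdh. All B arrays lie beyond all L arrays for Slpi, Pmp22, Mgst1, Cp, Xdh, S100a7a, Prl2c3, Klk10 and Tnc.

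B − L was above 0 for each of these 12 and passed its adjusted threshold for 2 of them, Cp and Xdh. For Adssl1 and Mxra8 its 95% interval also lay above 0 (0.27 to 2.58 and 0.31 to 2.79). Among all 208 shared genes, the 95% interval of B − L included 0 for 100. Without P1, 5 of the 12 kept their call, without P2 or P3 9 each, without L1, L2 or L3 8, 10 and 9, without B1 11, and without B2, B3 or B4 all 12.

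The 12 shared genes that were lower at both sites had smaller differences, and several of them code for secreted proteins. S100a7a, a calcium-binding protein of the psoriasin type, was 9.99, 8.62 and 9.61 in P, 7.60, 8.56 and 7.40 in L and 5.08, 6.39, 4.96 and 5.91 in B. L2 lay just under P2, and the B arrays were lower than all others (average -2.69 ± 0.38, adjusted p = 0.007, limma). B − L was -2.27 (-3.18 to -1.36), and S100a7a was detected on 2 of 4 B arrays, so part of its B level lies below the detection limit. Prl2c3 encodes a proliferin, a placental hormone of the prolactin family, and fell from 9.17, 8.33 and 9.61 in P to 8.23, 8.21 and 7.25 in L and 6.09, 5.38, 4.79 and 6.20 in B. L1 and L2 lay just below P2, and B was again far lower (average -2.28 ± 0.35, adjusted p = 0.0104, limma). Prl2c3, too, was detected on 2 of 4 B arrays. The 2 other proliferin genes tested, Prl2c2 and Prl2c4, were also lower (-1.91 and -2.01, adjusted p = 0.0156 and 0.0153), but overlapped P and were not shared. Proliferin genes are close copies, and a probe of 1 may read the RNA of another. The lower call was made for 0 of the 3 without P1 and without P3, and for 3 of 3 without any other array.

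Nppb, the precursor of a natriuretic peptide, was 8.003, 7.22 and 8.13 in P, 6.84, 6.40 and 7.02 in L and 6.42, 5.69, 4.64 and 6.57 in B. Its L and B ranges overlapped below P (average -1.49 ± 0.37, adjusted p = 0.0459). Klk10, a secreted serine protease, was 7.76, 7.50 and 7.58 in P, 6.78, 6.61 and 6.94 in L and 5.87, 5.43, 4.89 and 6.24 in B. It had 3 separate levels (average -1.42 ± 0.24, adjusted p = 0.0124, limma), and B − L was -1.17 (-1.75 to -0.59). Nppb and Klk10 were each detected on 2 of 4 B arrays, so part of their B level lies below the detection limit. Tnc, the matrix protein tenascin C, was 6.51, 7.41 and 7.18 in P, 6.41, 6.11 and 6.25 in L and 4.79, 4.54, 4.57 and 5.14 in B, where it was not detected on any array. A second probe for Tnc gave -1.06 and did not pass the test (adjusted p = 0.0513). Because B has only a bound for Tnc, the difference was at least 2.09-fold (adjusted p = 0.00576), and it was called without each array in turn (adjusted p at most 0.0333).

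Most of the remaining lower genes of the 12 had similar levels in L and B. Ipo7, a nuclear import receptor that also carries ribosomal proteins, was 7.59, 7.15 and 7.72 in P, 6.12, 6.99 and 6.88 in L and 6.13, 6.43, 6.43 and 6.58 in B (average -0.96 ± 0.21, adjusted p = 0.0299). Capn15, a calpain-type protease, was 7.18, 7.20 and 7.42 in P, 6.22, 6.61 and 6.19 in L and 6.78, 6.21, 6.36 and 6.50 in B, and had B − L of 0.12 (-0.26 to 0.50). Faap24, a subunit of the Fanconi anaemia core complex, was 0.95 ± 0.18 lower (adjusted p = 0.0156), and Ankrd10 0.91 ± 0.16 lower (adjusted p = 0.015). 2900060B14Rik, a transcript with no assigned role here, ranged widely (11.52, 10.42 and 10.72 in P, 9.40, 9.84 and 9.38 in L, 7.59, 9.64, 6.54 and 8.19 in B; adjusted p = 0.04). Aen and Tprg had no detected metastatic array; Tprg was at least 1.26-fold lower (adjusted p = 0.0179), and Aen was detected on 1 P array only (average -0.92 ± 0.17, of which its bound allows -0.15; adjusted p = 0.0155). Without P1, 1 of the 12 lower genes kept its call and without P3 2 of 12, against 9 without P2, 9, 10 and 9 without L1, L2 and L3, and 11, 11, 12 and 12 without B1, B2, B3 and B4.

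Some genes of MHC class I display and of the interferon response were higher at both sites, while most members of these lists did not pass the test. Of 21 genes of antigen processing tested, 4 were called higher, all 4 of them shared, and 0 lower (19% called higher, against 2.81% of all genes tested), with 20 of 21 differences above 0. The median difference over the 21 genes was 0.48 (0.47 with undetected groups at their bound), against -0.01 over all genes tested; it was 0.73 for B − P and 0.45 for L − P. Of 24 interferon-stimulated genes tested, 4 were called higher, 3 of them shared, and 0 lower (16.7% called higher), with 21 above 0 and a median of 0.67 (0.57 with bounds). Here the lung sublines had the larger median difference (0.83 for L − P, 0.37 for B − P).

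Tap2, a subunit of the peptide transporter, was 7.69, 8.46 and 8.08 in P, 8.80, 9.09 and 9.26 in L and 9.80, 9.85, 9.79 and 9.61 in B. The 3 groups formed 3 separate levels (average 1.33 ± 0.17, adjusted p = 0.00576; B − L 0.72, 0.29 to 1.14), and the call held without each array in turn (adjusted p at most 0.0349). H2-T23, the non-classical class I molecule Qa-1, was 7.92, 8.38 and 7.96 in P, 9.14, 8.77 and 9.26 in L and 10.30, 9.73, 9.64 and 9.40 in B (average 1.32 ± 0.20, adjusted p = 0.00929). Class I genes are alike in sequence, so its probe may read related genes too. Psmb8, an immunoproteasome subunit, was 9.69, 10.91 and 9.90 in P, 11.16, 11.15 and 11.63 in L and 11.61, 11.74, 11.88 and 11.29 in B, with P2 close to the metastatic range (average 1.30 ± 0.25, adjusted p = 0.0179). Psmb9, its partner, was not detected in P and was at least 1.81-fold higher in the metastatic sublines, where it was detected on all 7 arrays (adjusted p = 0.0217). The classical class I genes H2-K1 and H2-D1 and the light chain B2m did not pass the test (0.41, 0.70 and 0.45, adjusted p = 0.272, 0.0889 and 0.0903).

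Igtp, an interferon-induced GTPase, had overlapping levels in L and B: 5.58, 6.68 and 5.99 in P, 7.51, 7.25 and 7.94 in L and 7.44, 7.87, 7.29 and 7.07 in B. Its average difference was 1.41 ± 0.25, 2.65-fold (adjusted p = 0.0135), and B − L was -0.15 (-0.75 to 0.45). Ifi27 was 10.67, 11.32 and 11.21 in P, 11.78, 11.48 and 11.69 in L and 12.29, 12.25, 12.29 and 12.40 in B, a smaller and graded difference (0.91 ± 0.16, adjusted p = 0.0126). Dhx58, an RNA helicase that tunes viral RNA sensing, was not detected in P and was at least 1.28-fold higher (adjusted p = 0.0274). The other gene called, Gbp2, overlapped P (1.65, adjusted p = 0.0454), and Isg15 and Oasl2 were 0.89 and 1.02 higher without passing the test (adjusted p = 0.158 and 0.0836). These counts rest on P1: without it 0 interferon-stimulated genes and 1 antigen processing gene were called, without P3 1 and 2, without L1 or L3 2 and 3 each, and without B3 8 and 5.

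The promoters of these genes are shown because the interferon-stimulated response element, through which interferon-activated factors act, is a short sequence that can be looked up. The core searched was GAAA, any 2 bases and GAAA again, on either strand and counted once a gene, in windows of 250 bases before to 50 after the transcription start from RefSeq (GRCm38.p6). It was present for 12 of the 20 interferon-stimulated genes with a window, for 4 of 17 antigen processing genes and for 3.99% of the 27025 genes with a window. Among the 142 shared higher genes, 114 had a window and 11 of these held the core (9.65%), as did 1 of 58 shared lower genes (1.72%), against 3.65% of the genes tested. The 2 shared genes of both lists with the core before the start are Igtp and H2-T23, on the strand of each gene, with the core or its reverse complement in capitals.
Igtp, chr11:58199466-58199555, plus strand: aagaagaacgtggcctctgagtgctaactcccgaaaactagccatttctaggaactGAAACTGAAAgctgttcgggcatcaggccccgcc
H2-T23, chr17:36032756-36032845, minus strand: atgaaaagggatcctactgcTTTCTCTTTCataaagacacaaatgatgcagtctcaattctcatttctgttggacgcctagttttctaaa
The Igtp core starts 34 bases before the transcription start, and the H2-T23 core lies on the opposite strand at -124 to -115 from the start. The windows of Psmb8 and Psmb9 do not hold these letters, and Tap2, Ifi27 and Dhx58 had no window. A match is a description of the sequence only, and no binding was measured.

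Some genes of ribosome biogenesis were lower at both sites. Of 38 tested, 11 were called lower, 5 of them shared, and 0 higher (28.9% called lower, against 1.74% of all genes tested), while 27 did not pass the test, and 37 of 38 differences were below 0. The median was -0.51, with -0.81 for B − P and -0.28 for L − P, so the L side was the smaller. Rrp9, a protein of the U3 particle that cuts ribosomal RNA, was 10.31, 9.92 and 10.35 in P, 9.64, 9.58 and 9.84 in L and 8.85, 9.16, 8.60 and 9.22 in B (average -0.87 ± 0.17, adjusted p = 0.0205). Gnl3, the nucleolar GTPase nucleostemin, was 9.01, 8.76 and 8.80 in P, 8.45, 8.39 and 8.49 in L and 7.45, 7.79, 7.46 and 7.75 in B (average -0.83 ± 0.14, adjusted p = 0.0117). Both had 3 levels without overlap, with B below L. Noc3l, a factor of the large subunit, was 9.15, 8.57 and 8.69 in P, 8.06, 8.50 and 8.07 in L and 7.79, 8.14, 7.39 and 7.68 in B (average -0.82 ± 0.19, adjusted p = 0.0399). Utp14a, a factor of the small subunit, was 7.34, 7.17 and 6.99 in P, 6.47, 6.80 and 6.41 in L and 6.32, 6.43, 6.18 and 6.39 in B (average -0.72 ± 0.14, adjusted p = 0.0206; B − L -0.23, -0.57 to 0.11). In these last 2 the L and B ranges overlapped. The 6 called genes that were not shared, such as Rrp12 (-1.71 in B − P and -0.41 in L − P) and Rrp1b (-1.52 and -0.03), were lower mainly in B.

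The count of 11 fell to 0 without P1, 3 without P2, 2 without P3, 2 without L1 and 3 without L3, and was 9 to 14 without any other array. Median scaling in place of quantile normalization gave 6, and the processed values of the authors 15. The E-box CACGTG, which Myc and related factors bind, was present in the windows of 8 of the 34 ribosome biogenesis genes with one (23.5%), 936 of the 7753 genes tested with one (12.1%) and 10 of 58 shared lower genes (17.2%). Among the called ribosome biogenesis genes, the windows of Utp4, Wdr43 and Mybbp1a hold it. Those of Rrp9, Gnl3, Noc3l, Utp14a, Rrp1b and Polr1e do not, and Rrp12 and Bop1 had no window. No binding was measured. None of the 18 cytosolic tRNA synthetases and none of the 35 cell cycle and replication genes tested was called in either direction, with medians of -0.20 and -0.07 and 4 and 3 genes at an unadjusted p under 0.05 (limma). Farsa, a subunit of the phenylalanyl-tRNA synthetase, and Cdc25a, a phosphatase of the cell cycle, came closest (-0.63 and -0.57, adjusted p = 0.0507 and 0.0502).

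**Figure D4:**
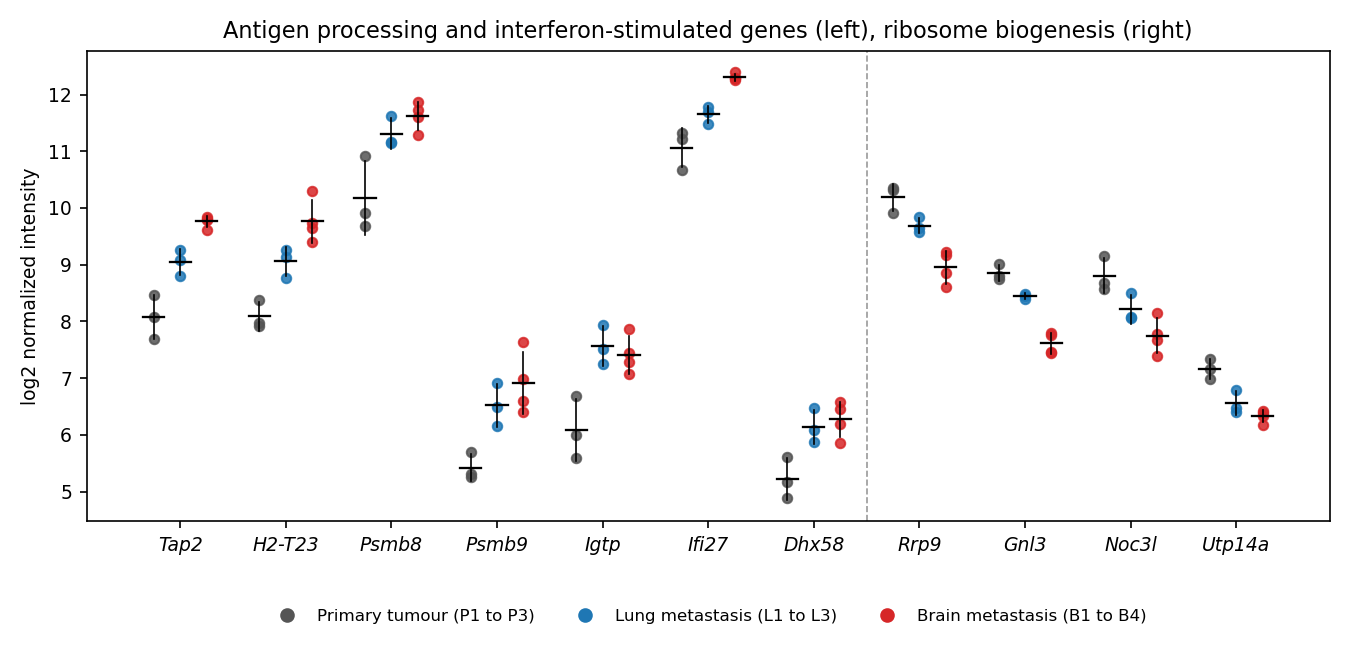
Log2 normalized intensity (y axis) of 7 shared genes of antigen processing and the interferon response and 4 of ribosome biogenesis on each array (points; P grey, L blue, B red), with the mean (horizontal bar) and SD (vertical bar) of each group. Tap2 and Gnl3 show 3 separate levels, Igtp and Dhx58 overlap between L and B, and Psmb9 and Dhx58 were not detected on any P array.

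**Figure D5:**
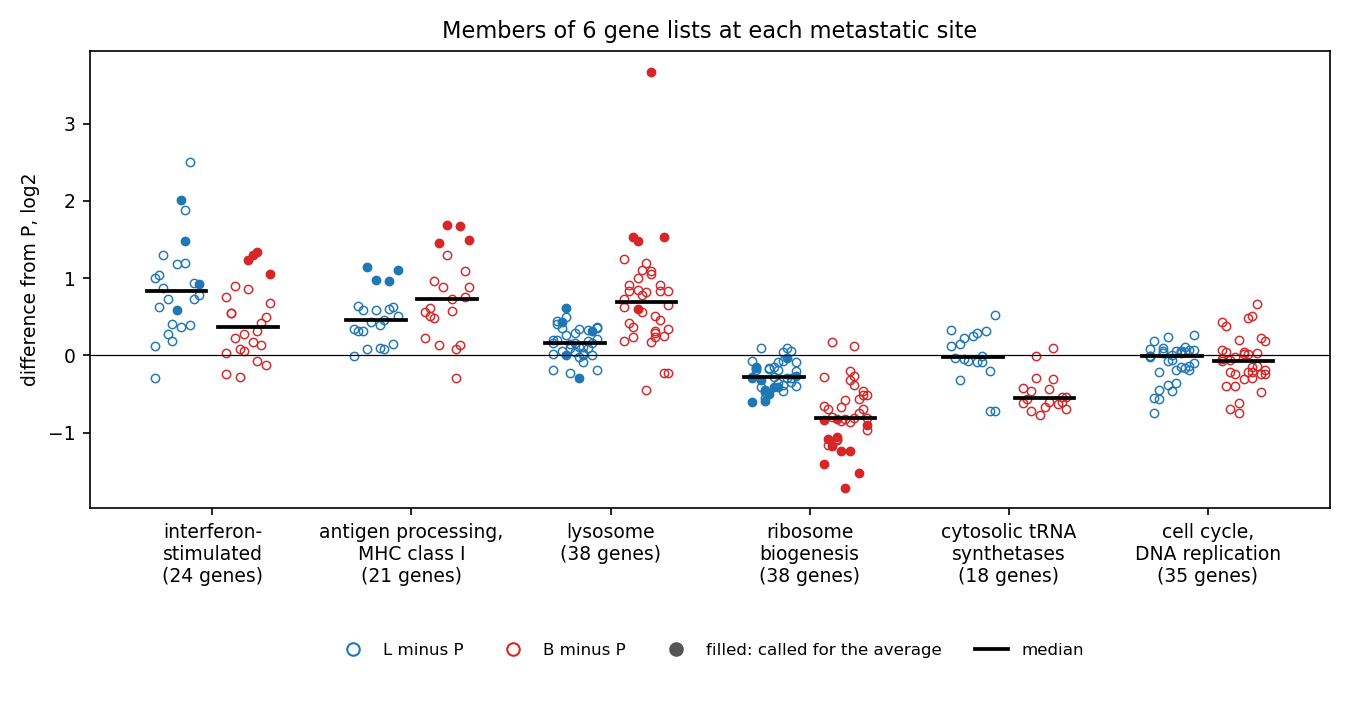
L minus P (blue) and B minus P (red) on the log2 scale (y axis) for every tested member of 6 gene lists (x axis), filled where the average of both sites was called, with the median as a black bar. The interferon-stimulated genes have the higher median in L (0.83 against 0.37), the lysosome genes in B (0.69 against 0.16), and the ribosome biogenesis genes lie below 0 at both sites (-0.28 in L and -0.81 in B).

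Of 26 growth factor and receptor kinase genes tested, 3 were called higher, all shared, and 1 lower (11.5% and 3.85%, against 2.81% and 1.74% of all genes tested). Angpt2, a ligand of the Tie2 receptor of vessels, was 7.42, 7.53 and 7.65 in P, 8.10, 8.002 and 8.08 in L and 9.96, 9.52, 9.74 and 10.14 in B. The L arrays stood close together just above P and the B arrays far above both (average 1.42 ± 0.15, adjusted p = 0.00429; B − L 1.78, 1.42 to 2.15). Vegfa, the main growth factor of vessels, had overlapping levels in L and B: 9.23, 9.32 and 9.18 in P, 10.49, 9.80 and 9.98 in L and 9.83, 9.69, 10.22 and 9.83 in B (average 0.75 ± 0.17, adjusted p = 0.0369; B − L -0.20, -0.61 to 0.22). Pdgfra, a receptor for platelet-derived growth factors, was 6.95, 7.64 and 7.78 in P, 8.79, 8.35 and 9.18 in L and 9.35, 9.43, 11.45 and 9.18 in B. B3 stood far above the other B arrays, and without B3 the difference was 1.59 with an adjusted p of 0.00491 (1.86 ± 0.43 and 0.0369 with all arrays). Pdgfra also marks fibroblasts. Of the 12 fibroblast and pericyte markers, 6 were not detected on any array, Col1a1, Col1a2, Col3a1 and Lum among them, and the 5 others were each detected on 2 arrays at most. Fgfbp1, a carrier of fibroblast growth factors, was lower in B than in L (B − P -3.51 and L − P -0.03, adjusted p for B − L = 0.00144). The count of 3 higher genes was 1 without P1, P2, P3, L1 or L3 and 2 without B1, and the 1 lower call was lost without any P or L array.

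Matrix genes had 1 call in each direction among 19 tested (Tgm2 and Tnc, above), and matrix proteases and their inhibitors likewise among 21. These shares (5.26% and 4.76% in each direction) rest on 1 gene each, against 2.81% of all genes tested called higher and 1.74% lower. Mmp11, a stromelysin, was 0.78 ± 0.19 higher (6.87, 7.50 and 7.13 in P, 7.86, 7.67 and 7.83 in L, 8.31, 7.87, 7.77 and 8.50 in B; adjusted p = 0.0449), and lost the call without any array except B2, B3 or B4. Adamts1, which cleaves proteoglycans, was 7.10, 6.53 and 6.78 in P, 6.07, 6.09 and 6.40 in L and 4.65, 4.63, 4.56 and 4.83 in B, where it was not detected. It was at least 1.82-fold lower (adjusted p = 0.00429) and was called without each array in turn. A second probe for Adamts1 gave -1.33 (adjusted p = 0.0191).

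Single genes of redox, aldehyde and lysosomal metabolism were higher, while most members of these lists did not pass the test. Of 27 genes of oxidative stress and glutathione, 4 were called higher (14.8%) and 0 lower, against 2.81% and 1.74% of all genes tested. In this list 15 differences were above 0 and 12 below, with a median of 0.05. Besides Mgst1, Gstm5, a cytosolic glutathione transferase, was shared (9.31, 9.68 and 9.54 in P, 10.09, 10.03 and 9.95 in L, 10.38, 10.96, 10.71 and 9.99 in B; 0.76 ± 0.19, adjusted p = 0.0482). Gstm1 and Nfe2l2, the transcription factor NRF2, were called (1.75 and 0.69, adjusted p = 0.0347 and 0.0328) with an L − P of 0.94 and 0.36 that had an unadjusted p of 0.068 and 0.069. Of 9 aldehyde dehydrogenases, 3 were called higher (33.3%) and 1 of them, Aldh3a2, which clears fatty aldehydes, was shared. It was 9.18, 9.76 and 9.48 in P, 10.11, 9.84 and 9.85 in L and 11.01, 11.19, 11.45 and 11.18 in B, with L2 just above P2 (average 1.09 ± 0.16, adjusted p = 0.00792; B − L 1.27, 0.89 to 1.66). The lysosome list had 5 of 38 called higher (13.2%) and 0 lower with 35 above 0 (median 0.45, 0.69 in B − P and 0.16 in L − P), and 1 shared gene, the mannosidase Manba (0.61 ± 0.16, adjusted p = 0.0499), whose B and L differences were 0.60 and 0.61. Without P1, 1, 0 and 0 genes of these 3 lists were called, without P2 3, 2 and 2, without P3 1, 1 and 0, without L1 or L3 1, 2 and 1 each, without L2 1, 2 and 6, and without B1 1, 3 and 2.

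The p53 targets and apoptosis regulators moved in both directions, with 5 of 28 called higher (17.9%) and 2 lower (7.14%), against 2.81% and 1.74% of all genes tested. The shared higher ones were Casp1 (above), Bcl2l11, which codes for the death activator Bim, and Bmf of the same family. Bcl2l11 was 7.31, 7.005 and 7.07 in P, 7.97, 7.92 and 7.58 in L and 8.45, 8.36, 8.49 and 7.75 in B (0.92 ± 0.18, adjusted p = 0.0215). Bmf was detected on 3 B arrays and on no other, so its L − P compares 2 undetected groups and no fold is given. Its average was 0.89 ± 0.22 (adjusted p = 0.0456, limma). With P and L at their bound the average was 0.02, B − P 0.16 and L − P -0.12, so a change shared by both sites is not shown for Bmf. Casp4, an inflammatory caspase, was not detected in P and was called with an overlap (1.51, adjusted p = 0.031), as was Trp53inp1 (1.26, adjusted p = 0.0459). The lower genes were Aen and Plk2, of which Plk2 was -2.91 in B − P and -0.10 in L − P (adjusted p for B − L = 0.000458). The 5 higher calls became 0 without P1, 3 without P2, 1 without P3, 1 without L1, 2 without L3 and 3 without B1, and the 2 lower calls 0 without P1 or P3 and 1 without P2.

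Further lists gave isolated shared genes, most of them the only or 1 of 2 calls of their list in that direction. Over all genes tested, 2.81% were called higher and 1.74% lower. A single call was 4.35% of a list of 23 genes and 4.17% of a list of 24. Cebpb, a transcription factor of the acute-phase and stress responses, was 10.86, 11.81 and 11.69 in P, 12.40, 12.40 and 12.12 in L and 12.24, 12.49, 12.84 and 12.34 in B (0.94 ± 0.21, adjusted p = 0.0347), while 2 other genes of the amino acid list of 26 were lower. These were Slc1a5, the glutamine carrier, at least 1.62-fold lower (6.82, 6.65 and 6.33 in P, 6.11, 6.01 and 6.21 in L, and not detected in B; adjusted p = 0.0152), and Shmt1, the cytosolic serine hydroxymethyltransferase (8.33, 8.26 and 8.03 in P, 7.53, 7.65 and 7.75 in L, 7.31, 7.42, 7.19 and 7.59 in B; adjusted p = 0.0214). Dusp5, a phosphatase that switches off ERK, was the 1 call among 24 ERK feedback and immediate early genes (9.31, 9.09 and 9.56 in P, 8.82, 8.88 and 8.28 in L, 7.41, 8.05, 7.51 and 7.91 in B; -1.13 ± 0.19, adjusted p = 0.0126). Cx3cl1, a membrane-bound chemokine, was the 1 call among 23 chemokines, cytokines and NF-kappaB targets (7.23, 7.35 and 7.46 in P, 7.80, 7.80 and 8.40 in L, 9.63, 9.35, 10.47 and 9.20 in B; 1.49 ± 0.25, adjusted p = 0.0124). Without P1 all 5 of these genes lost the call (adjusted p = 0.178 for Cebpb, 0.109 for Slc1a5, 0.142 for Shmt1, 0.0827 for Dusp5 and 0.0827 for Cx3cl1), as did Cebpb without P3, L1, L2 or L3, Slc1a5 without P2, Shmt1 without P2, P3 or L1, and Dusp5 without P3 (adjusted p from 0.0524 to 0.0839). Of 6 genes of milk and lactation tested, 3 were called higher and 1, Xdh, was shared; the casein gene Csn3 was 2.07 higher in B and 2.15 in L without passing the test (adjusted p = 0.101), as Lcn2 in the acute-phase list was 1.90 and 4.29 (adjusted p = 0.122). The lists of epithelial junctions (16 tested), cholesterol and fatty acid synthesis (26) and the respiratory chain (29) held 0 called genes, with 4, 5 and 4 at an unadjusted p under 0.05 (limma). The lowest p in them belonged to Esrp2 (-0.79, adjusted p = 0.0917), Srebf2 (-0.52, 0.0684) and Cycs (-0.71, 0.0902).

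Several genes with a large average were not shared. Id2, which keeps helix-loop-helix factors from binding DNA, was 8.13, 7.43 and 7.98 in P, 8.25, 8.35 and 8.34 in L and 9.90, 10.10, 10.06 and 9.29 in B. All 7 metastatic arrays lay above P (average 1.23 ± 0.20, adjusted p = 0.0119), but L − P was 0.46 with an unadjusted p of 0.0763, and B − L was 1.52 (1.04 to 2.01, adjusted p = 0.00259). Aldh3a1, an aldehyde dehydrogenase, overlapped between L and P (4.95, 6.15 and 6.26 in P, 6.14, 6.11 and 6.73 in L) and was higher in B (9.22, 10.05, 10.81 and 8.61; average 2.21 ± 0.42, adjusted p = 0.0183; B − L 3.34, 2.32 to 4.37). Wnt7a, a secreted Wnt ligand, was 10.24, 10.25 and 10.38 in P, 9.63, 10.14 and 9.62 in L and 6.60, 6.80, 4.55 and 8.03 in B (average -2.14 ± 0.53, adjusted p = 0.0451). Krt14, a keratin of basal epithelium, was 11.004, 11.63 and 10.10 in P, 10.93, 11.05 and 11.64 in L and 7.55, 5.18, 4.75 and 7.16 in B (average -2.23 ± 0.56, adjusted p = 0.0471; B − L -5.05, -6.40 to -3.70). In these 4 genes the brain sublines lay apart from both P and L. Krt14 was detected on 2 of 4 B arrays and Wnt7a on 3, so part of their B level lies below the detection limit. P2ry6 is a receptor for extracellular UDP. Of the 221 called genes for which the sites differed, it was the 1 with the larger difference from P in L. It was 4.59, 5.67 and 5.40 in P, where it was not detected, 9.03, 8.83 and 7.69 in L and 5.57, 7.52, 6.70 and 5.21 in B, where 2 of 4 arrays detected it. The average was at least 2.89-fold higher (adjusted p = 0.03, limma), and B − L was -2.27 (-3.40 to -1.14). Itgb2, the beta chain of leukocyte integrins, was also high in L (8.02, 7.88 and 7.39) and in B (8.01, 7.86, 7.14 and 6.66), but B4 lay below P2 at 6.80 (average 1.27 ± 0.30, adjusted p = 0.0385). Without P1, Id2 kept its call (adjusted p = 0.0484), and Aldh3a1, Wnt7a, Krt14, P2ry6 and Itgb2 lost it (0.126, 0.181, 0.2, 0.178 and 0.207); Wnt7a, Krt14 and Itgb2 also lost it without P2, P3, L1, L2 or L3, Wnt7a and Itgb2 without B1, Krt14 without B2, P2ry6 without P2, P3, L1 or L2, and Aldh3a1 without P3 (adjusted p from 0.0514 to 0.148).

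A set of 19 shared genes was called with every array left out in turn, 16 of them higher and 3 lower; it was drawn up after the values were seen. Besides Slpi, Cp, Tgm2, Mgst1, Xdh, Angpt2, Tap2, Adamts1 and Tnc it held Fcna, Vasn, Antxr1, Pdgfrl, Tnfrsf19, Col4a5, Cd1d1, Sorl1, Tmem53 and Mars2. Fcna, a ficolin that starts the lectin pathway of complement, was 5.23, 5.31 and 5.17 in P, where it was not detected, 6.61, 6.19 and 6.30 in L and 6.54, 6.31, 6.71 and 6.30 in B. L and B overlapped (B − L 0.10, -0.25 to 0.45), and Fcna was, beside Tgm2, the gene called in all 21 alternatives. Vasn, a surface protein that binds transforming growth factor beta, was 7.94, 8.41 and 8.42 in P, 9.69, 9.32 and 9.66 in L and 10.63, 9.84, 10.36 and 10.17 in B (1.64 ± 0.19, adjusted p = 0.00429). Antxr1, a collagen-binding receptor, was 6.03, 6.38 and 6.43 in P, 7.32, 7.28 and 7.33 in L and 8.34, 8.44, 9.28 and 8.53 in B (1.69 ± 0.20, adjusted p = 0.00429). Both, as shared genes, lay above P on all metastatic arrays, and for Antxr1 the sites differed too (B − L 1.34, 0.86 to 1.81). Cd1d1, which presents lipids to natural killer T cells, was 6.40, 7.03 and 7.18 in P, 7.53, 7.55 and 7.60 in L and 8.53, 8.51, 8.38 and 8.58 in B (1.16 ± 0.17, adjusted p = 0.00792). Mars2, the mitochondrial methionyl-tRNA synthetase, was 7.59, 7.27 and 7.41 in P, 6.77, 6.89 and 6.48 in L and 5.78, 6.14, 5.90 and 5.71 in B (-1.12 ± 0.15, adjusted p = 0.00576). These 2 also formed 3 separate levels in the order P, L, B.

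At least 1 other probe was detected for 24 of the 62 named genes that were called, and each of these probes had the same sign as the one chosen. Another probe passed the test for 15 of them. For the other 9 none did. These were Tnc (above), Shmt1 (-0.23, adjusted p = 0.5), Slc1a5 (-0.36 and -0.47, lowest adjusted p = 0.311), Masp1 (0.82, adjusted p = 0.162), Mxra8 (1.58, 0.0828), Faap24 (-0.83, 0.0512), Dhx58 (0.52 and 0.81, lowest 0.113), Gstm1 (0.39, 0.247) and Aldoc, an enzyme of glycolysis (0.18, 0.661). The values of Shmt1, Slc1a5, Masp1 and Gstm1 given above were at least 1.5 times those of their other probes, and hold for the probe chosen.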

How the data were processed

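RNA of 10 cultured 4T1 sublines was read on Illumina MouseWG-6 v2.0 arrays, 1 array each. The deposited intensity values were extracted with GenomeStudio, without normalization between arrays. The deposited detection p-value of each probe compares it with the negative controls of its array. The authors also deposited processed values on a scale close to log2, made with lumi from probes with a detection p of 0.01 or less by variance-stabilizing transformation and robust spline normalization, which were used as an alternative. No source used here gives their versions.

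Intensities were background-corrected, quantile-normalized and log2-transformed with neqc (limma 3.58.1, R 4.3.3, offset 16). Of 45281 probes, 17550 were detected on at least 1 array, and 14973 of these had 1 gene symbol, 7 several and 2570 none. Symbols came from the annotation of the platform and were updated through the gene identifier. The probe with the largest interquartile range stood for a gene, which left 9486 genes. All 10 arrays were fitted with the group as the only term, and the contrast gave L and B a weight of 0.5 each. The test was two-sided. Where no array of a group detected a gene, the group was set to the dimmest detected signal of each array, which gives "at least" folds. Sublines were isolated independently, but the mice they share are not stated, so p-values measure the spread between sublines, and the number of arrays limits the precision.

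Named genes were the 12 shared genes in each direction with the largest difference at the weaker site, the 5 with the largest average, up to 4 called genes of each of 29 lists and 10 marker lists (the smallest p where none was called), and Id2 and Aldh3a1. The genes and lists were chosen with earlier results of these data known. Genes named besides these were chosen after their values were seen. The fit was tested on simulated data. Alternatives covered normalization, background, filters, probe choice, spread, site weighting and each array left out.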

Additional observations from a re-analysis of the deposited data

Results flagged for a closer look

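Among the 74 genes chosen for naming, 3 had 1 brain subline far from the others, and in each it was B3, the array that correlated least with the rest. Eng was 8.755 in B3 and 8.336 to 8.385 in the other B sublines, Pdgfra was 11.45 against 9.181 to 9.433, and Slc1a5 was 5.194 against 5.524 to 5.545. Slc1a5 was not detected on any B array, so its outlier lies below the detection limit. Chance flags about 1 in 20 groups, so 3 among 74 genes is no more than chance gives.

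The difference between the sites passed its own test for 29 of the 74 genes (limma, B − L, adjusted p under 0.05), all of it on the log2 scale. B exceeded L for Aldh3a1 by 3.344, Cp by 2.314, Xdh by 2.01, Angpt2 by 1.783, Cx3cl1 by 1.659, Aqp5 by 1.653, Gstm1 by 1.619, Id2 by 1.525, Aldh3a2 by 1.275, Grn by 1.103, Tcf4 by 0.9556, Sox9 by 0.769, Tap2 by 0.7157, Ifi27 by 0.6562 and Nfe2l2 by 0.6496. B − L was negative for Krt14 (-5.05), Wnt7a (-3.3), Prl2c3 (-2.284), S100a7a (-2.271), P2ry6 (-2.269), Adamts1 (-1.52), Tnc (-1.5), Esrp2 (-1.29), Klk10 (-1.171), Dusp5 (-0.9405), Gnl3 (-0.8276), Krt80 (-0.7366), Rrp9 (-0.7312) and Slc1a5 (-0.6629). Krt14, Prl2c3, S100a7a, P2ry6 and Klk10 were detected on 2 of 4 B arrays, Wnt7a on 3 and Esrp2 on 1, so part of their B level lies below the detection limit. Adamts1, Tnc, Krt80 and Slc1a5 were not detected on any B array, so the size of their B − L is not known. With B at the dimmest detected signal, B − P and L − P were -1.11 and -0.61 for Adamts1 and -1.35 and -0.78 for Tnc. They were -0.36 and -0.31 for Krt80 and -0.91 and -0.49 for Slc1a5. For P2ry6, B − P was 1.03 and L − P was 3.30, or 0.40 and 2.66 with P, where it was not detected, at its bound. Aqp5, Esrp2 and Sox9 did not pass the test for the average of both sites (adjusted p = 0.144, 0.0917 and 0.704).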

How the results depend on the processing

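None of the 74 named genes changed sign under any alternative, but 5 of the 208 shared genes did under at least 1 (Pex11g down to -0.43, St6galnac2 to -0.14, Spata6 to -0.10, Srr to -0.01 and Cfap97 up to 0.22). With all 10 arrays 432 genes were called, 267 higher and 165 lower, with 208 shared and 221 for which the sites differed. In that order, the counts were 237, 172, 65, 136 and 107 under median scaling, 629, 353, 276, 262 and 331 without background correction, 610, 345, 265, 261 and 312 with an offset of 50, 655, 329, 326, 282 and 362 with the authors' processed values, 283, 148, 135, 191 and 157 without the filter on dim probes, 523, 317, 206, 232 and 265 for probes detected on at least 3 arrays, 635, 363, 272, 263 and 323 with a trended and robust prior, 922, 513, 409, 395 and 386 with a variance weight for each group, and 2, 2, 0, 2 and 0 with the 7 metastatic arrays as 1 group. The probe with the highest mean gave 429, 272, 157, 210 and 222. Site tests from each pair of groups alone gave 238 shared genes. Higher genes made up 61.8% of the calls, 72.6% under median scaling, 50.2% with the authors' processed values and 52.3% without the filter. Without 1 array, the calls ranged from 24 to 672, higher from 18 to 392, lower from 6 to 280, shared from 22 to 288 and differing sites from 19 to 382. Arrays, not reads, set the precision, and the count fell most without P1 and P3. The cause of the other shifts was not tested.

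The arrays share replicate numbers that no source ties to a mouse or batch. Same-numbered arrays had correlated deviations of 0.174, 0.142 and 0.211 between L and B, -0.105, -0.00835 and 0.0888 between P and L, and -0.116, -0.106 and 0.0403 between P and B. Differently numbered L and B arrays ran from -0.108 to 0.0638, and 6 of 10 arrays correlated best with their own number. P1 correlated best with L2 and B2 (0.103 and 0.152) and P2 with L1 and B1 (0.0938 and 0.119), so a block by number does not follow these 2 arrays. With a replicate block, 529 genes were called, 320 higher and 209 lower, with 201 shared (160 of them also without the block) and 320 for which the sites differed. Of the 62 named genes that were called, 6 were above the threshold with it (Noc3l 0.0512, Vegfa 0.0523, Aldoc 0.0576, Bmf 0.06, Manba 0.0681 and Mmp11 0.0682, adjusted p from limma). A slide block was not run, since the headers name no slide.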
